A study of Mus musculus with 24 samples.

Results

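Pon1, Fabp1, Inmt, Selenbp1, Aldh2, Aldh1a1 and Acer2 code for enzymes or carriers that handle lipids, aldehydes, amines and sulphur compounds, and their transcripts were followed in mouse lung after 6 carbon nanomaterials. The 7 genes, of 20738 with a named spot, were picked mostly because their signal was lower after some of the materials, so their own differences are given as a description and without a test. Each gene was read from its array spot with the highest mean over all 24 samples, and all 7 were above the 40th percentile of signals in every sample. The mice were female C57BL/6, 7 to 8 weeks old, with no genetic change named in the labels, and received 10 µg a day in 50 µl of PBS for 4 days by oropharyngeal aspiration, where liquid placed in the throat is inhaled. Lungs were collected 24 h after the final dose. The groups were rCNT (3 samples), tCNT (3), SES (3), BayTubes (4), Graphite (4), fullerene (4) and Ctrl (3), where Ctrl mice received PBS without a particle. The names rCNT, tCNT and BayTubes stand for carbon nanotubes, rigid and tangled in the case of rCNT and tCNT, and the labels do not spell out SES. Every sample was a pool of RNA from 2 mice of a group, so the spread between samples is smaller than that between single mice would be.

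The genes act at different points of small-molecule metabolism. Pon1 is a calcium-dependent esterase and lactonase that the liver releases into blood on high-density lipoprotein, and Fabp1 carries fatty acids in the cytoplasm of liver and gut cells. Inmt methylates tryptamine and related amines and is known for high expression in lung, and Selenbp1 oxidises methanethiol and is abundant in red blood cells as well as in epithelia. Aldh2 clears acetaldehyde and lipid aldehydes in mitochondria, Aldh1a1 oxidises retinal to retinoic acid in the cytoplasm, and Acer2 splits ceramide into sphingosine and a fatty acid in the Golgi.

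On the mouse assembly GRCm38.p6 the genes are protein-coding and lie at chr6:5168090-5193987 (Pon1), chr6:71199879-71205034 (Fabp1), chr6:55170627-55174990 (Inmt), chr3:94933083-94944758 (Selenbp1), chr5:121566027-121593824 (Aldh2), chr19:20492583-20643463 (Aldh1a1) and chr4:86874348-86932524 (Acer2). RefSeq promoter windows of GRCm38.p6, 250 bases before to 50 bases after the annotated start, were at hand for 6 of the 7. The windows of Pon1 (chr6:5193897-5194196, minus strand) and Fabp1 (chr6:71199629-71199928, plus strand) are shown because these genes moved together over the samples, and that of Acer2 (chr4:86874164-86874463, plus strand) because its samples were ordered differently. They read 5′ to 3′ along the gene, with capitals on every match, on either strand, to 5 motifs: TATAAA (the TATA box), CCAAT (the CCAAT box), AGGTCA (a nuclear receptor motif), GGGCGG (the GC box) and TGACNNNGC (the core of the antioxidant response motif).
Pon1: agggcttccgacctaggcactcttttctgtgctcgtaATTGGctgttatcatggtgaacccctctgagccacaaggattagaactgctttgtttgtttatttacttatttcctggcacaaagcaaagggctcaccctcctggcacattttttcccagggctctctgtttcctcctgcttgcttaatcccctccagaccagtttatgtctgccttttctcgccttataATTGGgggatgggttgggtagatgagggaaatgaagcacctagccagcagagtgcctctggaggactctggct
Fabp1: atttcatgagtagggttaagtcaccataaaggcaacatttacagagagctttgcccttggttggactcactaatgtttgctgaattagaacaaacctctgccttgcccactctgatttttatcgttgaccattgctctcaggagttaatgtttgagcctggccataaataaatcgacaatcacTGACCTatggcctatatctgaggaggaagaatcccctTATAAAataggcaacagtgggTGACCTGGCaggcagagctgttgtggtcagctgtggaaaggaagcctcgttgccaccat
Acer2: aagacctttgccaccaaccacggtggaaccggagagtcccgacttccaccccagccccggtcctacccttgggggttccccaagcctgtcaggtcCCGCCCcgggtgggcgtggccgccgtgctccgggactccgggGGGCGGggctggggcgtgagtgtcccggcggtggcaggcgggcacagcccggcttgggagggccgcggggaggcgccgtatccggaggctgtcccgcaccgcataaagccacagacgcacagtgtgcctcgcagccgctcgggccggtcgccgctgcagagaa
The Pon1 window held CCAAT on the other strand at positions -213 and -23 from the start and none of the other motifs. The Fabp1 window held TATAAA at -30 and AGGTCA on the other strand at -67 and -9. The match to TGACNNNGC at -9 covers the same bases as the second AGGTCA. The Acer2 window held GGGCGG at -113 and, on the other strand, at -155, and neither TATAAA nor CCAAT. Of 32851 mouse windows of this length, 37.4% held CCAAT, 13.6% TATAAA, 16.3% AGGTCA, 35.7% GGGCGG and 12.4% TGACNNNGC, so each motif is common among windows. A match is a string of letters and was not tested as a binding site.

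The values are log2 signals of 2-colour arrays whose dyes each held a sample, on 12 arrays and 3 slides. Signals carry no count, and precision is set by how many samples a group has. The labels do not say whether the pools of a group came from separate experiments, and p-values measure only the spread between these samples. Markers of lung were present in all samples. The summed signal of 10 alveolar type 2 genes lay between 18.86 and 19.44 (log2). That of 8 club cell genes lay between 17.86 and 18.50. Ctrl samples were on slides 1 and 2 only, so slide 3, which held rCNT 5, had no control of its own. In whole-lung RNA, fewer cells of a type and less RNA per cell cannot be told apart.

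The 7 genes showed more than 1 pattern: Pon1, Fabp1, Inmt, Selenbp1 and Aldh1a1 had their lowest group mean after rCNT, while Aldh2 and Acer2 were low after every material. Every rCNT sample lay below every Ctrl sample for all 7 genes, an order that 15.9% of the 16519 tested genes showed after rCNT. The same was true of 5 of the 7 after tCNT (7.45% of all tested genes), 3 after SES (5.97%), 4 after BayTubes (5.7%), 4 after Graphite (4.53%) and 2 after fullerene (5.44%). The genes were chosen on these contrasts, so nothing is read from those counts. The median of the 7 fitted differences was -1.17 on the log2 scale after rCNT, -0.60 after tCNT, -0.21 after SES, -0.68 after BayTubes, -0.45 after Graphite and -0.32 after fullerene. The median of all tested genes was between -0.015 and 0.024. Once sorted, the values of the samples differed by no more than 0.0856, so a median near 0 over all genes follows from the deposited values. Every one of these comparisons used the same 3 Ctrl samples. Against the other 5 materials, the rCNT samples were below all 18 samples for Pon1, Fabp1 and Aldh1a1 (3 of 7, against 3.12% of all genes). For Aldh2 and Acer2 the rCNT samples lay among those of the other materials, so the name of genes lost after rigid nanotubes does not describe these 2.

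**Figure D1:**
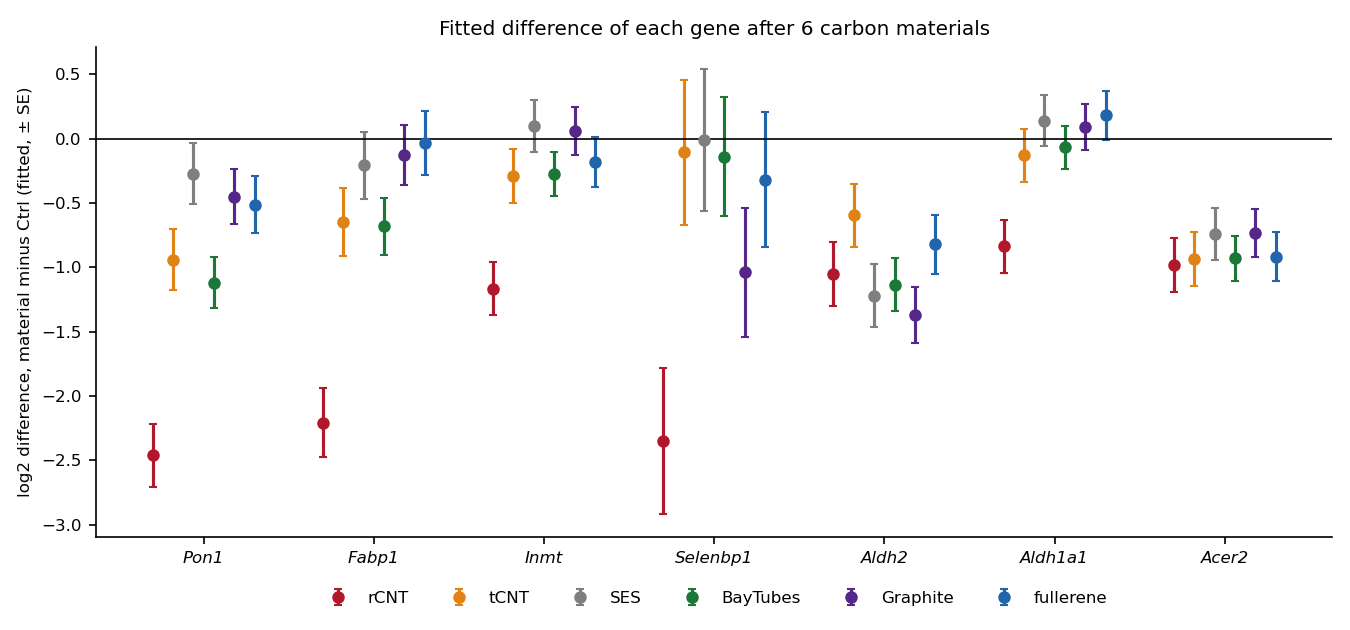
The vertical axis is the fitted log2 difference of a material minus Ctrl with its standard error, for 7 genes along the horizontal axis and 6 materials by colour. Pon1, Fabp1, Inmt, Selenbp1 and Aldh1a1 were lowest after rCNT, while the 6 estimates for Acer2 lay close together between -0.98 and -0.73.

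Pon1, the lactone-splitting esterase, had its lowest signals in the rCNT samples. Its signal was 8.99, 8.94 and 8.23 in rCNT samples, 10.39, 9.94 and 10.50 in tCNT, 11.10, 10.82 and 11.06 in SES, 9.81, 10.49, 10.14 and 10.10 in BayTubes, 10.57, 11.05, 10.77 and 10.84 in Graphite, 10.22, 10.83, 10.83 and 11.26 in fullerene, and 11.58, 11.17 and 11.18 in Ctrl. The rCNT samples stood apart from all others, and 20 of the 21 exposed samples lay below the lowest Ctrl sample, the exception being fullerene 24. The fitted difference from Ctrl was -2.46 ± 0.24 after rCNT (SE, n = 3 and 3), -0.94 ± 0.24 after tCNT, -0.27 ± 0.24 after SES, -1.12 ± 0.20 after BayTubes, -0.45 ± 0.21 after Graphite and -0.51 ± 0.22 after fullerene. In the order of group means, rCNT was followed by BayTubes, tCNT, fullerene, Graphite and SES, whose neighbouring ranges overlapped, and the range of SES lay below that of Ctrl. Without tCNT 8, the lowest tCNT sample, the tCNT difference was -0.62. The array carries 10 spots with the same Pon1 transcript, and their rCNT differences lay between -2.76 and -2.35, with all 18 samples of the other materials above the rCNT samples on every spot. Fabp1, Inmt, Selenbp1, Aldh2 and Aldh1a1 each had only 1 named spot, so spots could not be compared for them.

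Fabp1, the fatty acid carrier, was lowest in the same 3 samples. It was at 8.32, 9.02 and 7.97 in rCNT samples, 10.23, 9.55 and 10.35 in tCNT, 10.32, 10.58 and 10.49 in SES, 9.70, 10.43, 10.40 and 9.51 in BayTubes, 10.79, 10.44, 10.45 and 10.50 in Graphite, 10.59, 10.51, 10.81 and 10.95 in fullerene, and 11.01, 10.70 and 10.46 in Ctrl. No rCNT sample reached the lowest sample of any other group. The BayTubes samples split into a pair just under the lowest Ctrl sample and a pair, BayTubes 17 and 20, well below it. Fitted differences from Ctrl were -2.21 ± 0.27 after rCNT, -0.65 ± 0.27 after tCNT, -0.21 ± 0.26 after SES, -0.68 ± 0.22 after BayTubes, -0.13 ± 0.24 after Graphite and -0.03 ± 0.25 after fullerene. Between rCNT and Ctrl the order was BayTubes, tCNT, SES, Graphite and fullerene, and each of these ranges overlapped the next, Ctrl included. The tCNT difference was -0.23 without tCNT 8, again the lowest of its group.

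**Figure D2:**
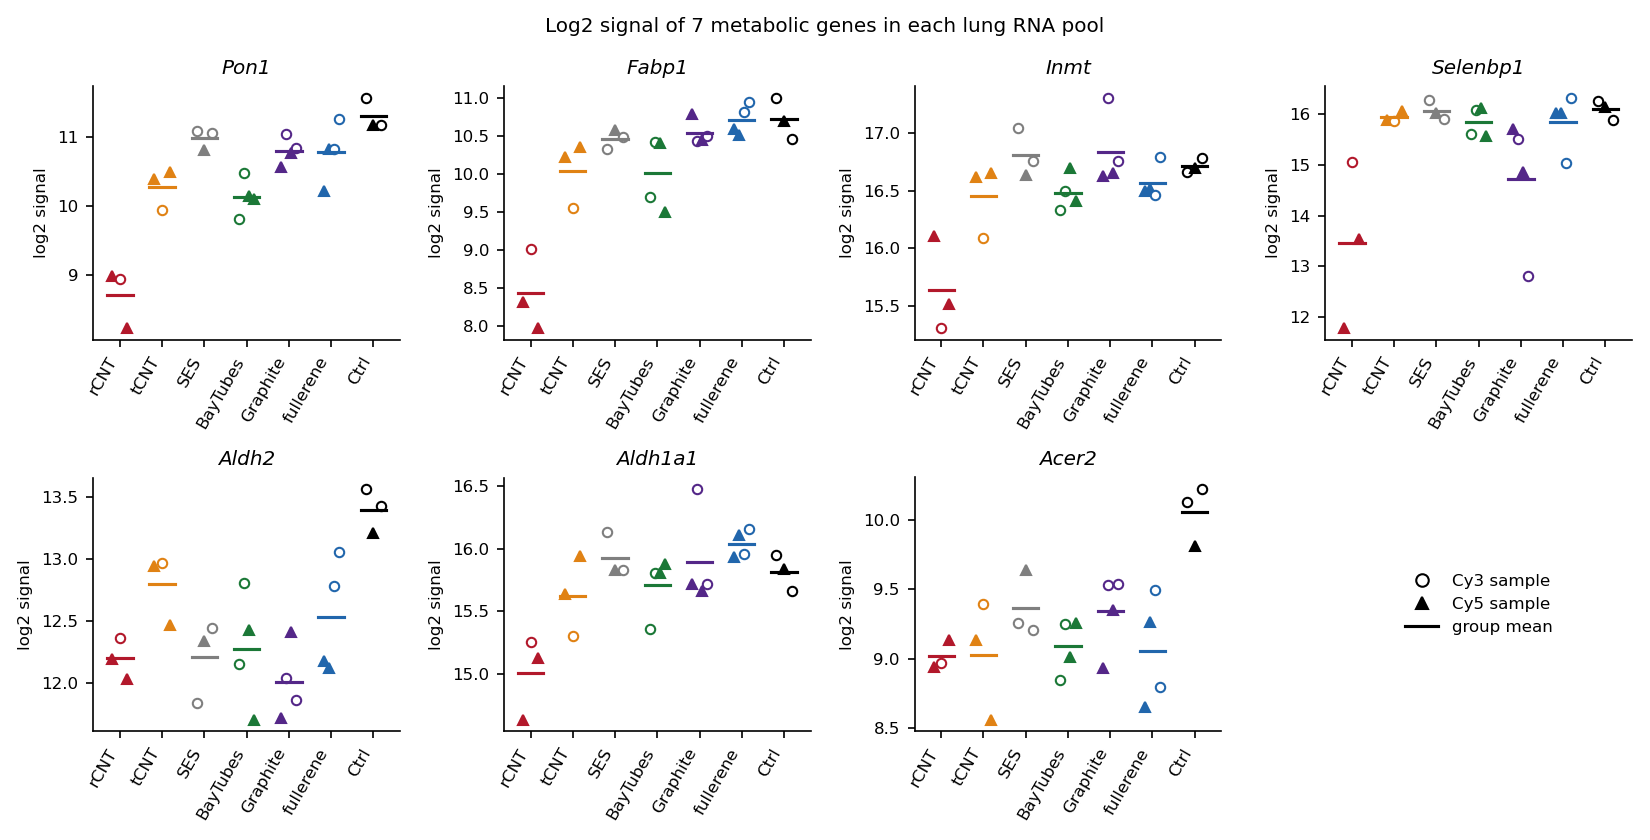
Each panel shows the log2 signal of a gene in every sample by group, from rCNT on the left to Ctrl on the right, with open circles for Cy3 samples, filled triangles for Cy5 samples and a bar at the group mean. Pon1 and Fabp1 are lowest in the 3 rCNT samples, while for Aldh2 and Acer2 all exposed samples lie below the 3 Ctrl samples.

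Inmt, the amine methyltransferase, differed less than Pon1 and Fabp1, and its lowest group was again rCNT. Its signal was 16.11, 15.31 and 15.51 in rCNT samples, 16.62, 16.09 and 16.66 in tCNT, 17.04, 16.64 and 16.76 in SES, 16.33, 16.50, 16.69 and 16.41 in BayTubes, 16.63, 17.31, 16.66 and 16.76 in Graphite, 16.50, 16.51, 16.47 and 16.80 in fullerene, and 16.66, 16.69 and 16.79 in Ctrl. The highest rCNT sample, rCNT 4, was just above the lowest tCNT sample, and the ranges of all other neighbours in the order overlapped. Fitted differences from Ctrl were -1.17 ± 0.21 after rCNT, -0.29 ± 0.21 after tCNT, 0.10 ± 0.20 after SES, -0.27 ± 0.17 after BayTubes, 0.06 ± 0.18 after Graphite and -0.18 ± 0.19 after fullerene. These signals are near the top of the scale, where the brightest spot of the array was at 17.97, and a bright spot can understate a difference. That effect was not tested.

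Aldh1a1, the retinal dehydrogenase, also had its lowest signals in the rCNT samples. It was at 14.64, 15.25 and 15.13 in rCNT samples, 15.64, 15.30 and 15.94 in tCNT, 16.13, 15.83 and 15.83 in SES, 15.36, 15.80, 15.81 and 15.88 in BayTubes, 15.72, 16.47, 15.66 and 15.72 in Graphite, 15.93, 16.11, 15.95 and 16.16 in fullerene, and 15.95, 15.84 and 15.66 in Ctrl. All rCNT samples were below all 21 other samples, but the gap to the next, tCNT 8, was small. Fitted differences from Ctrl were -0.84 ± 0.21 after rCNT, -0.13 ± 0.20 after tCNT, 0.14 ± 0.20 after SES, -0.07 ± 0.17 after BayTubes, 0.09 ± 0.18 after Graphite and 0.18 ± 0.19 after fullerene. Above rCNT the order was tCNT, BayTubes, Ctrl, Graphite, SES and fullerene, and neighbouring ranges overlapped throughout. Within slide 2 the rCNT difference was 0.14 ± 0.35 with the dye term, which there rests on Graphite 13 and Graphite 14, and -0.93 ± 0.36 without it.

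Selenbp1, the methanethiol oxidase, had the widest spread of the 7 genes. Its signal was 11.78, 15.06 and 13.55 in rCNT samples, 15.88, 15.87 and 16.07 in tCNT, 16.29, 16.02 and 15.90 in SES, 15.62, 16.09, 16.11 and 15.57 in BayTubes, 15.70, 15.51, 14.87 and 12.81 in Graphite, 16.02, 16.03, 15.05 and 16.33 in fullerene, and 16.27, 16.14 and 15.88 in Ctrl. The rCNT samples were below every Ctrl sample but overlapped Graphite and fullerene. The fitted difference from Ctrl was -2.35 ± 0.57 after rCNT and -1.04 ± 0.50 after Graphite. After tCNT it was -0.11 ± 0.56, after SES -0.01 ± 0.55, after BayTubes -0.14 ± 0.47 and after fullerene -0.32 ± 0.52. The lowest rCNT sample, rCNT 4 at 11.78, and the lowest Graphite sample, Graphite 16 at 12.81, shared an array, and Graphite 15 and fullerene 23, at 14.87 and 15.05, shared another on the same slide. With that first array left out, a setting chosen after seeing the data, the differences were -1.79 after rCNT and -0.49 after Graphite. Without rCNT 5 the rCNT difference was -3.30.

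**Figure D3:**
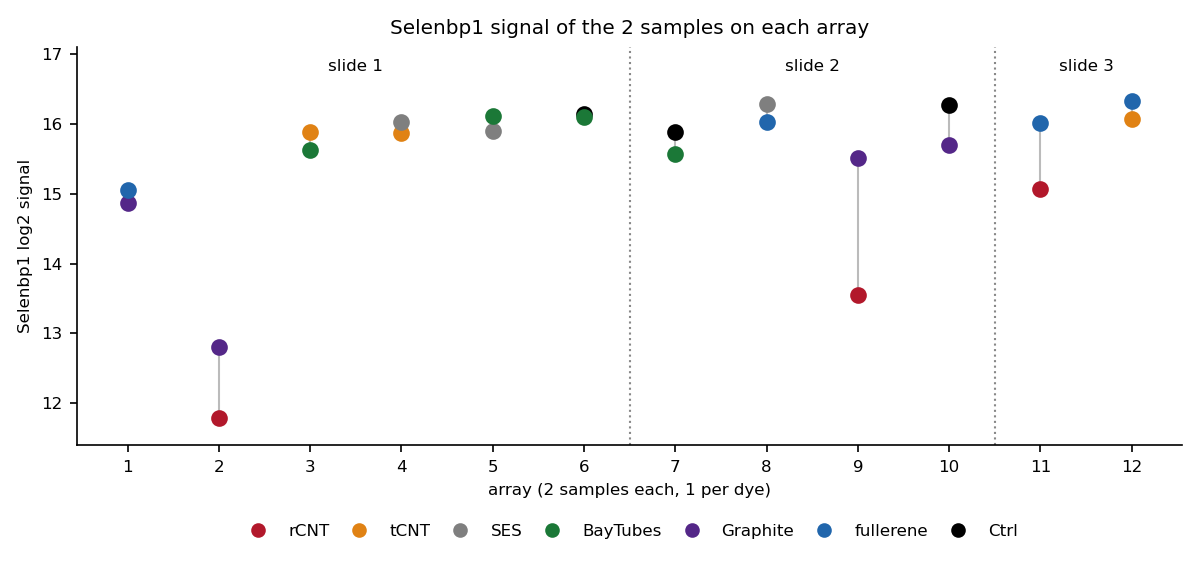
The vertical axis is the log2 signal of Selenbp1 and the horizontal axis the 12 arrays, each with its 2 samples joined by a line and coloured by group, with dotted lines between slides. On array 2 both samples are low, rCNT 4 at 11.78 and Graphite 16 at 12.81, and on array 9 rCNT 6 at 13.55 lies below Graphite 14 at 15.51.

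Aldh2, the mitochondrial aldehyde dehydrogenase, was lower after all 6 materials. Its signal was 12.19, 12.37 and 12.03 in rCNT samples, 12.95, 12.97 and 12.47 in tCNT, 11.84, 12.34 and 12.45 in SES, 12.15, 12.81, 12.43 and 11.70 in BayTubes, 11.71, 12.04, 12.41 and 11.86 in Graphite, 12.18, 12.12, 12.78 and 13.06 in fullerene, and 13.57, 13.21 and 13.43 in Ctrl. All 21 exposed samples lay below every Ctrl sample, and 0.212% of all tested genes (35 of 16519) showed that order. On the 3 arrays that held a Ctrl sample, that order fixes that the other dye was lower, so these pairs are no further check. They were BayTubes 18 at 12.81 beside Ctrl 2 at 13.21, BayTubes 20 at 11.70 beside Ctrl 3 at 13.43, and Graphite 13 at 11.71 beside Ctrl 1 at 13.57. Fitted differences from Ctrl were -1.05 ± 0.25 after rCNT, -0.60 ± 0.25 after tCNT, -1.22 ± 0.24 after SES, -1.14 ± 0.20 after BayTubes, -1.37 ± 0.22 after Graphite and -0.82 ± 0.23 after fullerene. The order of means was Graphite, rCNT, SES, BayTubes, fullerene and tCNT with overlapping neighbours, then a gap to Ctrl. rCNT minus the mean of the other 5 materials was -0.02 ± 0.18. Within slide 1 the tCNT difference was 0.015, with 1 Ctrl sample there.

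Acer2, the Golgi ceramidase, was also lower after all 6 materials on its main spot, with another order of the materials than Aldh2. It was at 8.94, 8.97 and 9.13 in rCNT samples, 9.13, 9.39 and 8.56 in tCNT, 9.26, 9.64 and 9.21 in SES, 8.84, 9.25, 9.01 and 9.26 in BayTubes, 8.94, 9.53, 9.35 and 9.54 in Graphite, 8.65, 9.27, 9.50 and 8.80 in fullerene, and 10.13, 9.81 and 10.22 in Ctrl. All 21 exposed samples were again below every Ctrl sample, and neighbours in the order of means, which was rCNT, tCNT, fullerene, BayTubes, Graphite and SES, overlapped. The ranges of rCNT and SES did not overlap. Fitted differences from Ctrl were -0.98 ± 0.21 after rCNT, -0.94 ± 0.21 after tCNT, -0.74 ± 0.20 after SES, -0.93 ± 0.17 after BayTubes, -0.73 ± 0.18 after Graphite and -0.92 ± 0.19 after fullerene, and rCNT minus the other 5 was -0.13 ± 0.15.

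The second Acer2 spot, dimmer and with the same transcript accession, gave another picture. It read 5.58, 7.75 and 6.55 in rCNT samples, 7.98, 8.09 and 7.81 in tCNT, 8.05, 8.70 and 8.34 in SES, 7.68, 8.47, 8.47 and 7.79 in BayTubes, 8.19, 6.87, 6.32 and 5.70 in Graphite, 7.77, 8.49, 6.66 and 8.03 in fullerene, and 8.82, 8.64 and 8.25 in Ctrl. Here 16 of the 21 exposed samples were below the lowest Ctrl sample, and the lowest were rCNT 4 and Graphite 16, on the array where Selenbp1 was lowest. Over 24 samples the second spot correlated with Selenbp1 at r = 0.88 and with the first Acer2 spot at r = 0.16, as a description of values that share arrays. Without that array the r with Selenbp1 was 0.79. Which Acer2 spot follows the transcript was not tested, so the pattern given for Acer2 holds for its brighter spot.

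Likeness between the 7 genes across the 24 samples is described by Pearson's r, which follows the group means as well as the shared arrays. Pon1 and Fabp1 were most alike at r = 0.92, then Pon1 and Inmt at 0.86. Acer2 was about as like Aldh2, at 0.49, as Pon1, at 0.48. With the group means taken out, r was 0.57 for Pon1 and Fabp1, 0.53 for Pon1 and Inmt, 0.26 for Acer2 and Aldh2, and 0.05 for Acer2 and Pon1. Without the rCNT samples, Pon1 and Fabp1 were at 0.75, Inmt and Aldh1a1 at 0.72, Acer2 and Pon1 at 0.57, Acer2 and Aldh2 at 0.48, and Selenbp1 and Pon1 at 0.05. Aldh2 and Aldh1a1, of the same enzyme family, had r = 0.04 over all samples.

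Among all genes past the filter, the 3 most like each member over 24 samples were listed in the same way. For Pon1 these were Bex2 (r = 0.95), the club cell oxidase Cyp2f2 (0.92) and Fam205a2 (0.92). For Fabp1 they were Sipa1l2 (0.95), the glutathione transferase Gsta3 (0.94) and Faim2 (0.92). For Inmt they were Cyp2f2 (0.93), the endothelial proteoglycan Esm1 (0.92) and Bex2 (0.91), so Bex2 and Cyp2f2 stood near both Pon1 and Inmt. For Aldh1a1 they were Ccpg1 (0.93), Ppl (0.93) and Hsd11b1 (0.93). For Selenbp1 they were the endothelial receptor Acvrl1 (0.98), the spectrin Sptan1 (0.97) and Txnip (0.97), and leaving out the array that rCNT 4 shared with Graphite 16 gave 0.93, 0.92 and 0.89. For Aldh2 the highest were Numa1 (0.87), Gpr182 (0.87) and Otud7b (0.86), and for Acer2 Wscd1 (0.83), Gm3993 (0.82) and Zfp930 (0.81).

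Other genes of the same families and pathways, with a broader list of monooxygenases, esterases and epoxide hydrolases, made up 10 lists, here called related genes. Of these 200 genes, 177 passed the filter on low signals and were tested with limma, adjusting over all 16519 genes. The lists were drawn up with earlier results of these data known. After rCNT, 36 of the 177 fell (20.3%) and 16 rose (9.04%), against 9.41% and 12.4% of all tested genes. The list of monooxygenases, esterases and epoxide hydrolases held 14 of the genes that fell among its 22 and 1 that rose, with a median difference of -0.92. The flavin monooxygenase Fmo5 was at 10.34 ± 0.07 in rCNT and 11.30 ± 0.05 in Ctrl samples (SD, n = 3 each), a fitted difference of -0.94 ± 0.12 (limma adjusted p = 1.56e-05). Cyp2f2, which oxidises small aromatic compounds in club cells, fell by 1.27 ± 0.18 (limma adjusted p = 4.89e-05), and the epoxide hydrolase Ephx1 by 1.02 ± 0.15 (limma adjusted p = 7.04e-05). Cyp1b1, a cytochrome P450 of the aryl hydrocarbon response, was the gene of this list that rose, by 1.23 ± 0.16 (limma adjusted p = 1.64e-05). Fmo5, Cyp2f2, Ephx1 and Cyp1b1 differed in the same directions from the mean of the other 5 materials (limma adjusted p = 1.07e-06, 7.46e-06, 6.2e-06 and 9.49e-06).

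**Figure D4:**
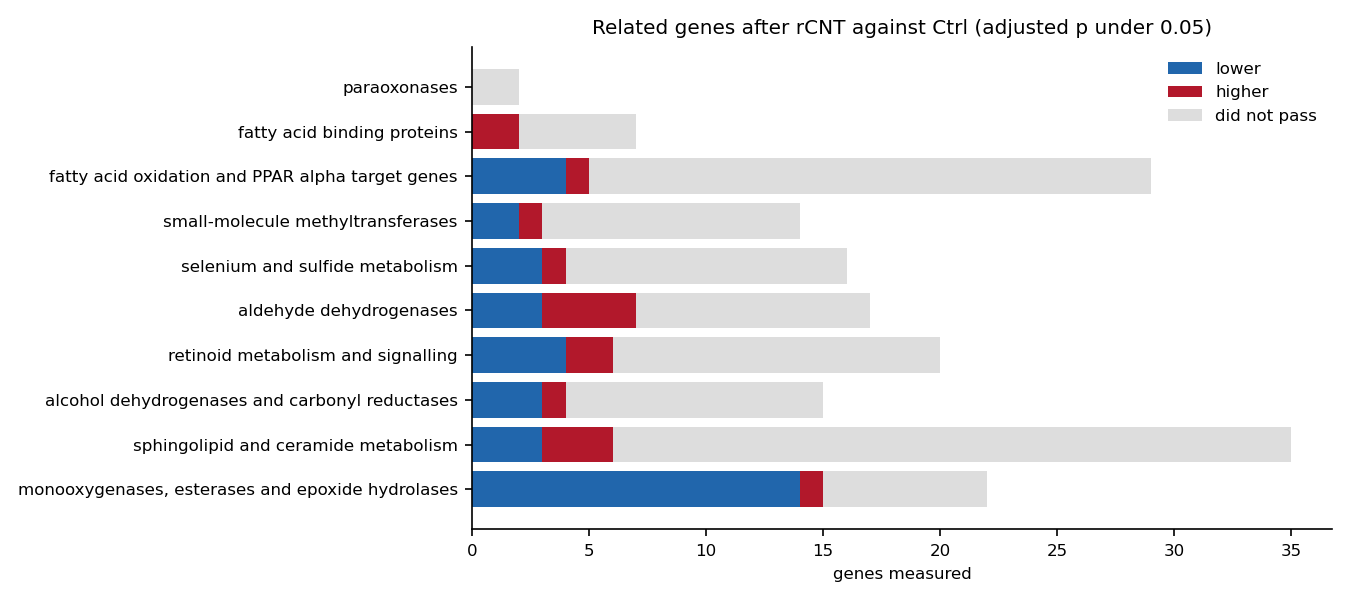
Bars give the number of measured genes in 10 lists of related genes, split into those lower, higher and not past the test after rCNT against Ctrl. The list of monooxygenases, esterases and epoxide hydrolases has 14 lower genes of 22, and the aldehyde dehydrogenases have 3 lower and 4 higher of 17. Among all tested genes 9.41% were lower and 12.4% higher.

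The closest relatives of the 7 genes gave mixed results after rCNT, beside 9.41% of all tested genes that fell and 12.4% that rose. Of 17 other aldehyde dehydrogenases, 4 rose and 3 fell after rCNT. Aldh1a3, which also makes retinoic acid, was at 7.67 ± 0.89 in rCNT and 5.91 ± 0.20 in Ctrl samples (SD), higher by 1.64 ± 0.30 (limma adjusted p = 0.000539). Its Ctrl level was near the 40th percentile of signals, which lay at 5.688 to 5.755 over the samples. With no dye term its rise was 0.72 within slide 1 and 2.32 within slide 2. The proline-pathway enzyme Aldh18a1 rose by 1.09 ± 0.19 and the mitochondrial Aldh1b1 by 0.92 ± 0.18, while the valine-pathway enzyme Aldh6a1 fell by 0.86 ± 0.19, with limma adjusted p of 0.000447, 0.000998 and 0.00274. Aldh1a7, the near relative of Aldh1a1, was at -0.23 ± 0.23 and did not pass, and a spot for either could pick up the other. Nor did the paraoxonases Pon2, at -0.38 ± 0.26, and Pon3, at -0.13 ± 0.15, the other members of the Pon1 family. Of 7 fatty acid binding proteins 2 rose and none fell: Fabp4 of fat cells and macrophages by 1.16 ± 0.25 and Fabp2 of the gut by 0.73 ± 0.20 (limma adjusted p = 0.00231 and 0.0115).

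**Figure D5:**
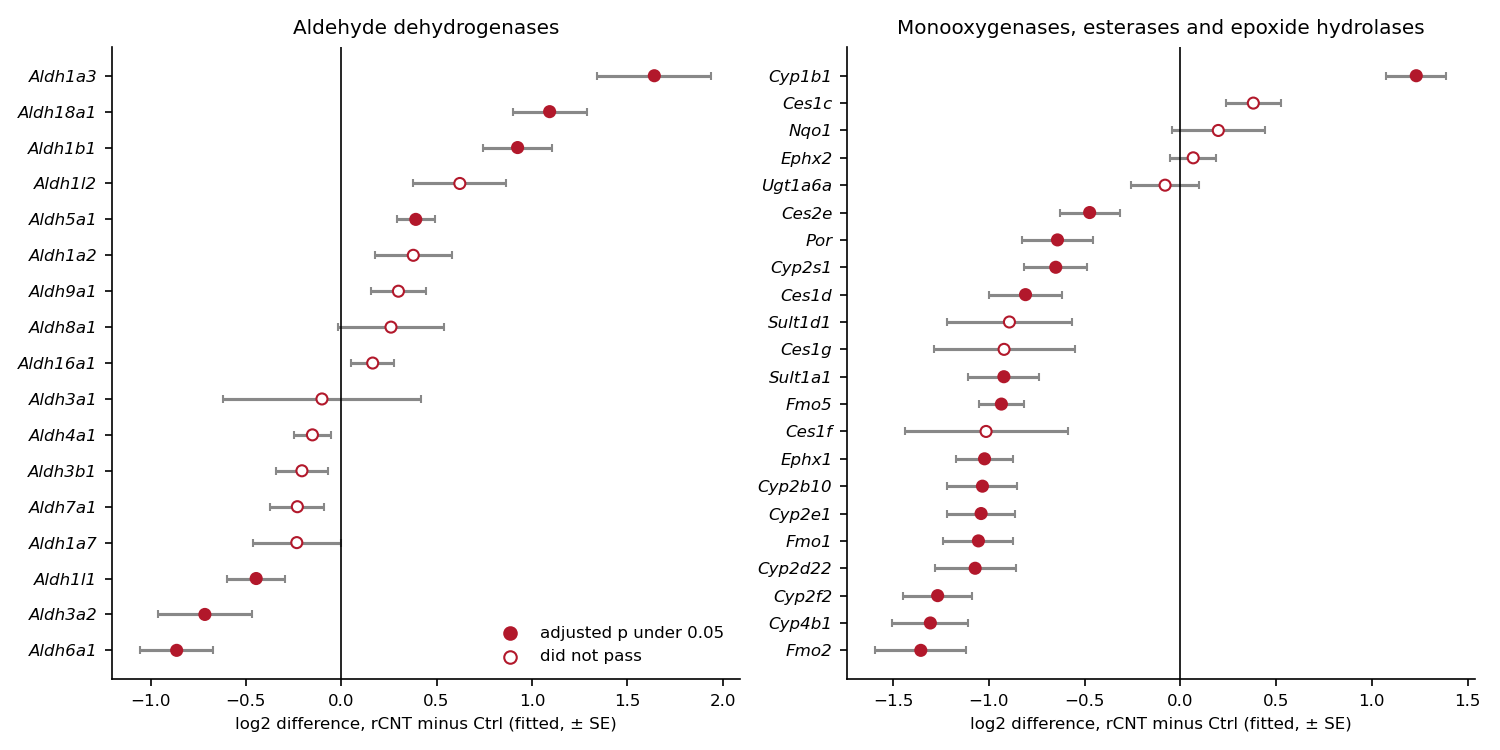
Points are fitted log2 differences of rCNT minus Ctrl with standard errors for 17 aldehyde dehydrogenases on the left and 22 monooxygenases, esterases and epoxide hydrolases on the right, filled where the limma adjusted p was under 0.05. The left panel has filled points on both sides of 0, from Aldh6a1 at -0.86 to Aldh1a3 at 1.64, and the right panel has Cyp1b1 alone filled above 0.

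The remaining lists were mixed after rCNT, where 9.41% of all tested genes fell and 12.4% rose. Their counts are small and are not read as results about these pathways. Of 29 genes of fatty acid oxidation 4 fell and 1 rose, with the acyl-CoA thioesterases Acot1 at -0.69 ± 0.16 and Acot2 at -0.70 ± 0.17. Of 20 retinoid genes 4 fell and 2 rose, with Lrat, which stores retinol as esters, at -1.55 ± 0.32 and the retinal reductase Dhrs3 at -0.66 ± 0.16. Of 16 genes of selenium and sulfide metabolism 3 fell and 1 rose, and the selenium carrier Selenop was at -0.95 ± 0.14 (limma adjusted p = 6.33e-05). Of 14 small-molecule methyltransferases 2 fell and 1 rose, the nicotinamide methyltransferase Nnmt, at 0.78 ± 0.18. Of 35 sphingolipid genes 3 rose and 3 fell, among them the ceramide synthase Cers3 at 0.84 ± 0.16, Sptlc3 of the first step of the pathway at 0.93 ± 0.22, the reductase Kdsr at -0.55 ± 0.13 and the receptor S1pr1 at -0.97 ± 0.25. Of 15 alcohol dehydrogenases and carbonyl reductases 3 fell and 1 rose, the aldo-keto reductase Akr1b8, at 0.99 ± 0.16, while Aox3 was at -1.43 ± 0.26 and the glucocorticoid-activating reductase Hsd11b1 at -0.88 ± 0.19. The limma adjusted p of these named genes lay between 6.33e-05 and 0.00753, and each call held with each sample left out in turn. With the mean of all spots of a gene, Cers3 was at 0.22, Nnmt at 0.38 and Sptlc3 at 0.565, so the size of these rises depended on the spot used. Within slide 2 Aox3 was at 0.21, against its fall in the full fit.

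After the other materials few of the 177 related genes passed. None did after tCNT, SES, Graphite or fullerene with limma, against 0.708%, 0%, 1.13% and 0.26% of all tested genes. An unadjusted limma p under 0.05 was found for 14 of the 177 after tCNT (7.91%, against 9.3% of all tested genes), 11 after SES (6.21% against 4.52%), 32 after Graphite (18.1% against 20.5%) and 22 after fullerene (12.4% against 12.1%). After BayTubes 4 passed (2.26%, against 3.18% of all genes): Akr1b8 at 0.48, Cers3 at 0.55, Sptlc3 at 0.75 and the retinoic acid hydroxylase Cyp26b1 at -2.43, with limma adjusted p of 0.0455, 0.0235, 0.0210 and 0.0267. Each call ended when 1 sample was left out. In those fits the limma adjusted p was 0.0555 to 0.233 for Akr1b8, 0.0654 to 0.204 for Cers3, 0.0782 to 0.286 for Sptlc3 and 0.0665 to 0.161 for Cyp26b1, whose difference was -1.54 without Ctrl 1. The Akr1b8 and Cers3 calls ended without BayTubes 17, BayTubes 20 or any Ctrl sample, the Sptlc3 call without BayTubes 18, BayTubes 20, Ctrl 2 or Ctrl 3, and the Cyp26b1 call without BayTubes 17, 18 or 20 or Ctrl 1. Between rCNT and the mean of the other 5 materials, 41 of the 177 were lower and 21 higher (23.2% and 11.9%, against 12.4% and 13.8% of all genes). The list of monooxygenases, esterases and epoxide hydrolases held 15 of the 41.

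Markers of several lung cell types differed after rCNT, where 9.41% of all tested genes fell and 12.4% rose. Of 10 endothelial markers 9 fell after rCNT (limma), with a summed signal of 16.74 to 17.19 (log2) in rCNT against 17.58 to 17.78 in Ctrl samples. Of 10 lung fibroblast markers 6 fell, with 15.04 to 15.25 in rCNT against 15.89 to 16.17 in Ctrl, and of 8 alveolar type 1 markers 5 fell, with 16.69 to 16.91 against 17.31 to 17.48. Of 7 tested club cell markers only Cyp2f2 fell. The sum over 8 on the array was 17.86 to 17.95 in rCNT against 18.25 to 18.30 in Ctrl, while the median difference of those tested was -0.10. Signals were added before the log2 was taken, so the brightest genes of a list weigh most in its sum. Recruited monocyte and macrophage markers rose in 6 of 7, with 15.06 to 16.03 against 14.13 to 14.56, and eosinophil markers in 4 of 5. Of 10 alveolar type 2 markers 3 fell and 1 rose, with a median difference of -0.25. Their sum was 19.05 to 19.29 in rCNT against 18.89 to 19.23 in Ctrl. Of 7 neutrophil markers 2 rose and 1 fell, of 6 fat cell markers 1 fell, and of 8 heart muscle markers none passed. Of 8 measured hepatocyte markers 1 rose and none fell, and Apoa1, Ttr, Cps1 and Fga did not pass the filter, beside the low Pon1 and Fabp1 signals. The summed signal of 12 hepatocyte genes was 11.14 to 13.44 in rCNT against 11.22 to 11.81 in Ctrl samples. It was highest in rCNT 4, at 13.44, with Graphite 16, on the same array, at 13.07 and tCNT 7, on another, at 13.02. Red blood cell markers fell in 3 of 6 that were tested. Their sum, over 8 genes on the array, was 17.55 in rCNT 4, 16.82 in rCNT 5 and 17.24 in rCNT 6, against 17.45 to 17.86 in Ctrl. The part of these cell types in the differences of the 7 genes was not tested. Fewer endothelial and fibroblast markers passed after the other 5 materials than after rCNT. The fibroblast sum was 15.60 to 15.65 after tCNT, 15.45 to 15.71 after BayTubes, 15.53 to 15.87 after Graphite and 15.69 to 15.77 after fullerene. All of these lay below the lowest Ctrl sum, 15.89, while SES at 15.70 to 16.04 overlapped Ctrl. The endothelial sum was below every Ctrl sample after tCNT, SES and BayTubes, and overlapped Ctrl after Graphite and fullerene. Of 10 fibroblast markers 3 fell after BayTubes and 1 after Graphite. Of 10 endothelial markers 1 fell after BayTubes, and none of either list passed after tCNT, SES or fullerene. Among all tested genes, 3.18% passed after BayTubes and 1.13% after Graphite. The median difference of the endothelial list was -0.30 after tCNT, -0.09 after SES, -0.30 after BayTubes, -0.41 after Graphite and -0.19 after fullerene. That of the fibroblast list was -0.23, -0.15, -0.35, -0.31 and -0.28 after the same materials in that order.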

How the data were processed

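Lung RNA of 24 pools was measured on 2-colour Agilent arrays of 62976 spots. The authors deposited a log2 signal for every spot in each sample, made with Agilent Feature Extraction and limma per the submitters' processing notes, which give no versions. Once sorted, the samples' values differed by no more than 0.0856, and the notes name no normalization. Platform annotation named 31465 spots with 1 gene, symbols were updated through RefSeq (GRCm38.p6), and each gene was read from its spot with the highest mean. Genes above the 40th percentile of signals in at least 3 samples were tested, 16519 of 20738. Differences were fitted with limma 3.58.1 (R 4.3.3, statmod 1.5.0) on all samples together, with group and dye as terms, moderated variances and the array as random block (correlation 0.399). Tests were 2-sided with Benjamini-Hochberg adjustment over all tested genes, at a threshold of 0.05, and the script was tested on simulated data. The 7 genes and all lists were chosen with earlier results of these data known. In each list the 4 called genes with the smallest p could be named for each comparison, and near relatives of the 7 whatever their p. After rCNT the text gives values for called genes that passed with each sample left out, a selection made after their values were seen, and after BayTubes for all 4 called genes. Alternatives changed the dye term, array block, slide, filter, normalization, spot, prior, threshold and samples. Spots without a gene name, 31511, were not used. No protein sequences were used.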

Additional observations from a re-analysis of the deposited data

Results flagged for a closer look

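In 3 of 21 tested sets of 4 samples (7 genes in BayTubes, Graphite and fullerene), the highest or lowest sample stood far from the others by Dixon's test, which chance does in about 1 in 20. Inmt was at 16.80 in fullerene 24, against 16.47 to 16.51 in the other fullerene samples. Aldh1a1 was at 15.36 in BayTubes 17, against 15.80 to 15.88 in the other BayTubes samples. Aldh1a1 was at 16.47 in Graphite 14, against 15.66 to 15.72 in the other Graphite samples, and Inmt was highest in the same sample. Groups of 3 were not tested.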

How the results depend on the processing

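The direction of each rCNT difference held for all 7 genes under every alternative but 1: Aldh1a1 was at 0.14 within slide 2. With each sample left out in turn, the rCNT differences ran from -2.63 to -2.21 for Pon1, -2.60 to -2.01 for Fabp1, -1.42 to -0.996 for Inmt, -3.30 to -1.88 for Selenbp1, -1.19 to -0.98 for Aldh2, -1.05 to -0.72 for Aldh1a1 and -1.10 to -0.90 for Acer2. Within slide 1, then the same with no dye term, they were -2.05 and -2.05 for Pon1, -0.61 and -0.60 for Inmt, -3.92 and -3.89 for Selenbp1, -0.77 and -0.76 for Aldh2 and -1.16 and -1.15 for Aldh1a1. Within slide 2 they were -3.01 for Fabp1, -0.56 for Inmt and -0.46 for Acer2, and with no dye term -3.33 for Pon1, -2.68 for Fabp1, -1.57 for Aldh2 and -1.22 for Acer2. With array as a fixed term Aldh2 was at -0.80, and with the mean of both spots Acer2 was at -1.31. Of the 42 differences of a gene after a material, 17 had the other sign under at least 1 alternative, at the farthest value given here. These were, within slide 1, Aldh2 0.015 and Selenbp1 0.15 after tCNT, Pon1 0.021 and Fabp1 0.20 after SES, Selenbp1 0.23 after BayTubes, Fabp1 0.10 after Graphite and Fabp1 0.68 after fullerene. Within slide 2 they were Aldh1a1 0.14 after rCNT, Inmt 0.31 and Aldh1a1 0.94 after BayTubes, and Pon1 0.014 and Inmt 0.44 after fullerene, which was 0.048 within slide 1. With no dye term, Selenbp1 was at 0.23 after SES within slide 2 and Aldh1a1 at -0.084 after Graphite within slide 1. With a sample left out, Aldh1a1 was at 0.13 after tCNT without tCNT 8, Inmt at -0.031 after SES without SES 10, and Inmt at -0.12 after Graphite without Graphite 14. Among related genes after rCNT, Aox3 was at 0.21 within slide 2 and Ethe1 at -0.033 within slide 2 with no dye term, and the other 31 of 33 nameable genes kept a sign throughout. For these, 23 of 33 calls held with each sample left out. Cbr2, Dhrs9, Ethe1, Mettl7a2, Pdk4, Pnmt, Rarb, Slc27a2, Sqor and Txnrd2 lost theirs, at limma adjusted p of 0.0505 to 0.178. The 52 related genes called after rCNT were 39 to 53 with a sample left out, 23 with array as a fixed term, 20 with only the groups compared, 27 within slide 2 and 4 there with no dye term. Against the other 5 materials, 62 became 45 to 68 with a sample left out, 22 with array fixed, 37 at a threshold of 0.01 and 33 at 1.5-fold. After BayTubes, 4 became 0 to 4 with a sample left out. They became 2 with no dye term, at 1.5-fold or with only the groups compared. They became 0 with no array block, with array fixed, at 0.01, within slide 1 with or without the dye term and within slide 2 without it, and 19 within slide 2 with it. After Graphite, 0 became 0 to 3 with a sample left out, 2 with slide as a term, 1 with the stricter filter, 6 within slide 2 and 1 within slide 1 with no dye term. After tCNT, 0 became 0 to 1 with a sample left out, after SES it stayed 0, and after fullerene it was 0 with a sample left out and 8 within slide 2. The slide fits without the dye term were chosen after seeing the data. For slide fits and left-out samples the array correlation was kept at its full-data value, and a lone sample was taken to vary as other groups do. The cause of these shifts was not tested. No replicate number recurs between groups, so none could be a block, while the array shared by 2 samples was the random block of the fit and, in an alternative, a fixed term. Signals have no depth, and group size limits precision.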
